A study of Homo sapiens with 12 samples.

Results

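The amino acid transporter genes were taken as all genes whose symbol places them in the solute carrier families SLC1, SLC3, SLC6, SLC7, SLC36, SLC38 and SLC43, and 59 of the 34595 genes with a value on the arrays met this rule. Within these families the symbol alone decided, though the members were chosen with earlier results of these data known. The families also hold a few carriers of other solutes, such as creatine, taurine, GABA and monoamines in SLC6. Gene expression was measured in the CD133+ and CD133- cells of KATO-III, SNU-216 and SNU-601, which are established gastric cancer cell lines, so that 6 populations were compared. PROM1 encodes CD133, a glycoprotein of the cell membrane that serves as a stem cell marker. The CD133+ cells were the brightest 10% after staining with the AC133 antibody, and the CD133- cells were the dimmest 6%. All lines were grown in RPMI1640 medium with calf serum, and no agent or genetic change set the fractions apart. The description deposited with the series names SNU201 where the array labels have SNU-216, and the labels were followed. Each population was hybridized on 2 Illumina Human HT-12 v3 BeadChip arrays, numbered 1 and 2 as replicates. Whether the 2 arrays came from separate sorts is not stated. The p-values within and between lines and of the interaction therefore measure only the spread between such arrays. Those over all lines also take in how the fraction difference varied between lines. Each line stands for itself alone.

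Amino acids cross the cell membrane through carriers that differ in their substrates and in what drives them. Sodium-coupled carriers of SLC1, SLC6 and SLC38 load the cell with glutamate, glutamine, alanine, glycine and proline, and exchangers such as SLC7A5 trade these for leucine and other essential amino acids, which in turn feed the mTORC1 growth pathway. Several SLC7 light chains reach the membrane only as a pair with a heavy chain of the SLC3 family, SLC3A2 (4F2hc) or SLC3A1 (rBAT), and tumor cells are known for high levels of SLC7A5, SLC3A2, SLC1A5 and SLC7A11.

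The deposited values are quantile-normalized intensities on a linear scale with a background subtracted. Values lower than 32.7 (the absolute 1st percentile) were raised to that floor before log2 was taken. All changes below are differences of these log2 values, CD133+ minus CD133- cells, so that changes of dim genes are understated. Arrays raised to the floor show no spread between them, so the p-value of a gene at the floor in some populations can be too low. A gene needed 2 or more arrays above the floor to be tested, which 20147 genes had, and was called at a limma adjusted p (Benjamini-Hochberg over all genes tested) under 0.05. PROM1 itself was higher in the CD133+ cells of KATO-III, SNU-216 and SNU-601 by 1.10, 2.02 and 1.86 on the log2 scale. Arrays of a population correlated at 0.9927 to 0.9945, fractions of a line at 0.974 to 0.9884, and different lines at 0.8486 to 0.9159 (Pearson's r across genes, which are not independent replicates). Epithelial markers were above the floor on all 12 arrays for 7 of 7 symbols. The endothelial markers (3 of 3) were above it on no array, and neither were the leukocyte genes PTPRC and CD3E, the fibroblast genes COL3A1 and DCN, and the erythroid gene HBA1. Of further leukocyte and fibroblast markers, CD14 lay above the floor on 6 arrays, CD79A on 9, COL1A1 on 7, LUM on 6 and COL1A2 on 1. CD14 ranged from 2.23 to 1242 over the arrays and CD79A from 7.87 to 60.5, and the summed fibroblast markers from 62.2 to 134 on CD133+ and from -1.09 to 825 on CD133- arrays. Their part in the results was not tested.

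Of the 59 transporter genes, 43 were tested, 18 lay above the floor on all 12 arrays and 25 on some of them. SLC7A3 and SLC7A10 were above the floor on 1 array each, and 14 members on none. These 14 comprised 7 of the 19 SLC6 genes, 3 of the 13 SLC7 genes, 2 of the 4 SLC36 genes and 2 of the 11 SLC38 genes, while all SLC1, SLC3 and SLC43 genes were tested. The SLC38 family, the sodium-coupled neutral amino acid carriers, had 7 of 11 members above the floor on every array, against 1 of 19 in SLC6. By population, the members above the floor on both arrays numbered 28 and 30 in KATO-III CD133+ and CD133- cells, 25 and 24 in SNU-216, and 29 and 29 in SNU-601. This is 40.7% to 50.8% of the members, beside 43.4% to 44.8% of all genes. A member that was above the floor only in some populations passed the filter through them, so for the 25 such members a difference and the test itself are linked.

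Fraction differences among the transporters varied from line to line. In bulk RNA of a sorted population, fewer cells with a transcript and less of it per cell cannot be told apart. In KATO-III, 21 of the 43 tested members were called (48.8%), 9 higher and 12 lower in CD133+ cells, where 39.3% of all tested genes were called, 18.7% higher and 20.6% lower. In SNU-216, 7 members were called (16.3%), 3 higher and 4 lower, beside 28.6% of all genes, 14.6% higher and 14% lower. In SNU-601, 9 members were called (20.9%), 6 higher and 3 lower, beside 16.4% of all genes, 8.59% higher and 7.78% lower. Over the 3 lines together, with line as a block, 1 member was called higher (2.33%) and none lower, beside 4.73% of all genes, 2.62% higher and 2.11% lower. By limma 12 of the 43 tested members had an unadjusted p under 0.05 over all lines, beside 4941 of all 20147 tested genes. The median change of the tested members was 0 in each line and -0.01 over all lines, and the median over all tested genes was 0 and -0.01 likewise. The study's signal-to-noise ratio over the 12 linear intensities passed 1 or -1 for no member, beside 0.558% and 0.402% of all genes.

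**Figure D1:**
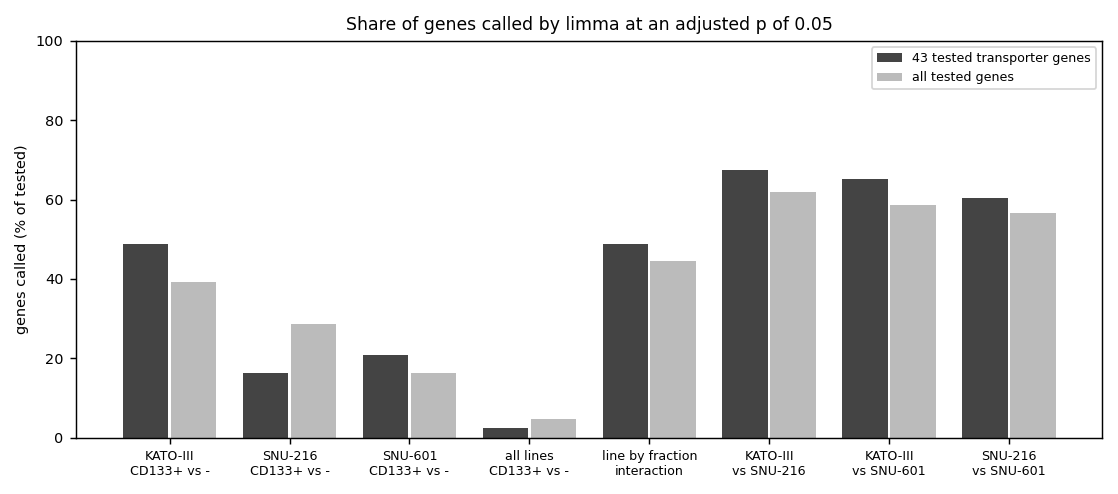
The bars give the percent of the 43 tested transporter genes (dark) and of all 20147 tested genes (light) called by limma at an adjusted p of 0.05 in each comparison. The dark bar stands at 48.8% in KATO-III, 16.3% in SNU-216, 20.9% in SNU-601 and 2.33% over all lines, and between 60.5% and 67.4% in the comparisons of whole lines.

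The fraction difference depended on the line for 21 of the 43 tested members by limma's test of the interaction of line and fraction (48.8%, beside 44.4% of all genes). Called members fell into several patterns. Of the 43, 19 were called in no line, beside 43.8% of all genes, 15 in a single line, 3 in the same direction in 2 lines and 1, SLC1A4, higher in all of them. Of all genes, 4.97% were called in every line, 0.63% higher throughout and 0.427% lower throughout. The other 5, SLC7A5, SLC3A1, SLC38A6, SLC38A10 and SLC43A3, were called in opposite directions in different lines, where 10.9% of all genes were. The share of all genes was not taken for calls in a single line or in the same direction in 2 lines, so those counts only describe the members.

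**Figure D2:**
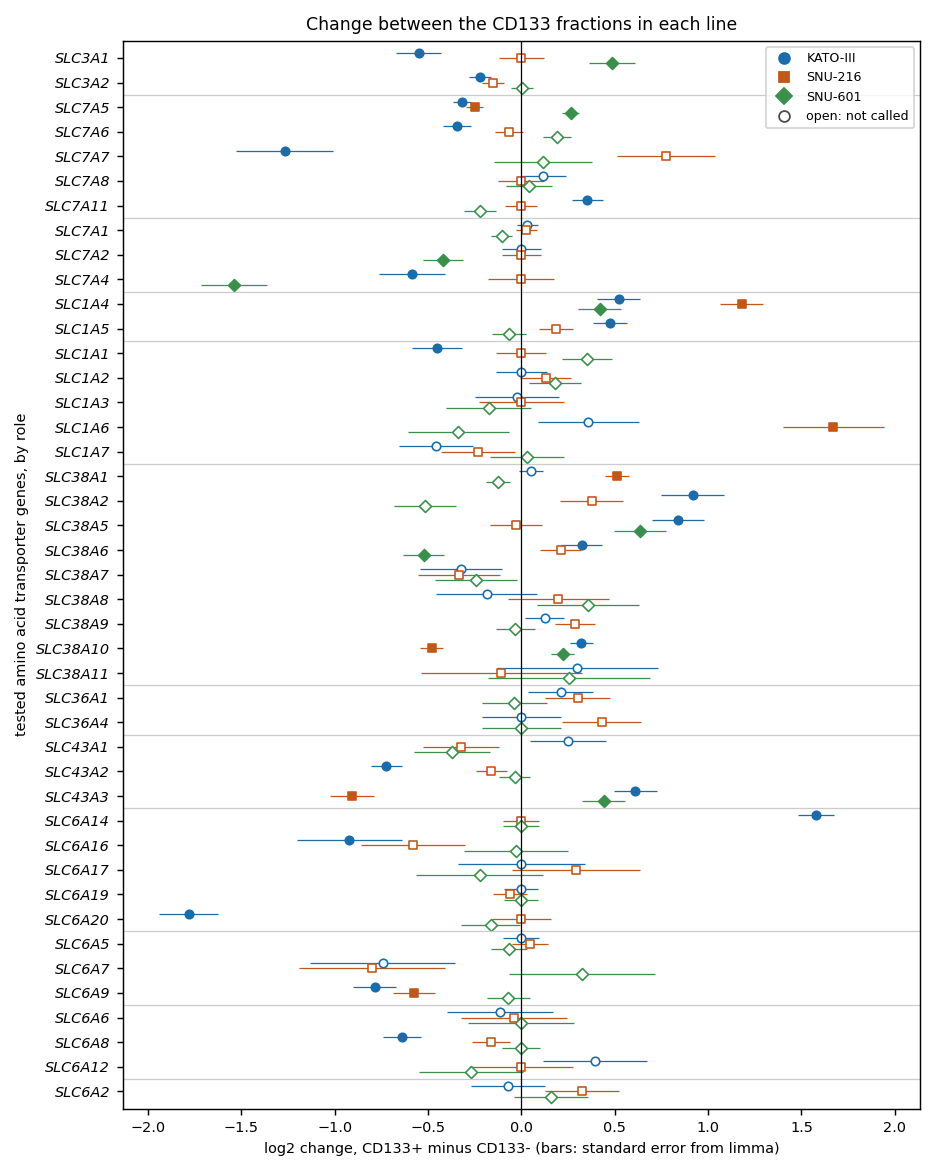
Each row is a tested transporter gene, ordered by role, with its log2 change (CD133+ minus CD133-) in KATO-III (circles), SNU-216 (squares) and SNU-601 (diamonds), and bars of the standard error from limma; filled symbols were called. SLC1A4 has filled symbols on the right in every line, and SLC43A3 and SLC38A10 have the SNU-216 square on the left with the other lines on the right.

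SLC1A4, a sodium-dependent exchanger of alanine, serine, cysteine and threonine (ASCT1), was the single member called over all lines. Its intensity in KATO-III was 830 and 851 in CD133+ cells and 573 and 598 in CD133- cells. In SNU-216 it read 77.9 and 80.3 against 13.4 and 37.3, and in SNU-601 152 and 137 against 114 and 102. Within each line both CD133+ arrays lay above both CD133- arrays, while the fractions overlapped over all lines, since the KATO-III CD133- cells stood above the CD133+ cells of the other lines. The log2 change was 0.52 in KATO-III (limma SE 0.11, adjusted p 0.00595), 1.18 in SNU-216 (adjusted p 0.000118) and 0.42 in SNU-601 (adjusted p 0.0366). Over all lines it was 0.71 (limma SE 0.135, adjusted p 0.0215), a 1.63-fold difference. It differed in size between the lines (interaction adjusted p 0.00804). The call over all lines was lost without KATO-III CD133+ array 2 (limma adjusted p 0.0517) or KATO-III CD133- array 1 (0.0513). It was also lost when the arrays of a population were averaged first (adjusted p 0.796) or taken as a random block (0.204). The SNU-601 call was lost without any single array of SNU-601 or of KATO-III (limma adjusted p 0.0511 to 0.155), and 1 of the 2 SNU-216 CD133- arrays was under the floor. With a floor of 16 the calls in KATO-III and SNU-601 were lost (limma adjusted p 0.244 and 0.49), and with a floor of 100 the SNU-216 change was 0.

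SLC1A5 (ASCT2), the related exchanger that carries glutamine, was bright in every population and was called in KATO-III alone. Its intensity was 4867 and 4861 in KATO-III CD133+ cells and 3143 and 3904 in CD133- cells, a log2 change of 0.47 (limma SE 0.092, adjusted p 0.0032). In SNU-216 it was 1661 and 1522 against 1440 and 1355, a change of 0.19 (adjusted p 0.18). In SNU-601 it was 6281 and 6510 against 6847 and 6534, a change of -0.06 (adjusted p 0.758). The fractions were thus apart in KATO-III, by less in SNU-216, and about level in SNU-601, and the interaction was called (adjusted p 0.023).

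Cells short of amino acids are known to use ATF4, with partners of the C/EBP family, at a composite element whose core reads TGATGNAA. The RefSeq promoter windows (GRCh38.p14, from 250 bases before to 50 after each listed start) held 66 windows for 44 of the 59 members, and 6 of them (9.09%), of 6 genes, contained these letters on either strand, beside 3.62% of 35116 windows of all genes. The stretches around them are printed because SLC1A4, SLC1A5 and other members described here are among them. They run 5′ to 3′ along the strand of the gene with the matched letters in capitals, and TTGCATCA and TTACATCA are matches on the other strand.
SLC1A4, chr2:64989381-64989410, + strand: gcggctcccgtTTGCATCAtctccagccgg
SLC1A5, chr19:46784893-46784922, - strand: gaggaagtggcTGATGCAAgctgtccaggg
SLC1A3, chr5:36596357-36596386, + strand: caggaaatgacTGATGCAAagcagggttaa
SLC3A2, chr11:62881725-62881748, + strand: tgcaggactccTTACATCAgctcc
SLC38A1, chr12:46266502-46266531, - strand: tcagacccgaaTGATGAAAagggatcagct
SLC7A1, chr13:29595663-29595692, - strand: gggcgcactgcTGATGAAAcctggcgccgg
The match began 7 bases before a listed start in SLC1A4, 97 before in SLC1A5, 220 before in SLC1A3 and 4 before in SLC38A1. It began at base 8 after a listed start in SLC7A1 and base 38 in SLC3A2. A gene can have several listed starts, and which of them these cells use was not tested. The 6 genes did not share a pattern. SLC1A4 rose in every line, SLC1A5 in KATO-III and SLC38A1 in SNU-216, SLC3A2 fell in KATO-III, and SLC7A1 and SLC1A3 were called in no line. A match is a description of letters and no evidence of a bound factor.

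The heavy chains and their partners came next. SLC3A2, the heavy chain that carries SLC7A5 and other light chains to the membrane, read 5005 and 4821 in KATO-III CD133+ cells and 5696 and 5768 in CD133- cells, a change of -0.22 (limma SE 0.058, adjusted p 0.0139). This small difference was no longer called without KATO-III CD133+ array 2 (limma adjusted p 0.0796), CD133- array 1 (0.0507) or CD133- array 2 (0.0663). In SNU-216 it read 1615 and 1636 against 1853 and 1757 (change -0.15, adjusted p 0.0865). SNU-601 gave 3373 and 3328 against 3146 and 3548, where the fractions overlapped (change 0.00).

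SLC7A5 (LAT1), the exchanger of leucine and other large neutral amino acids, was lower in CD133+ cells of KATO-III and SNU-216 and higher in those of SNU-601. Its intensities in KATO-III were 11183 and 11473 against 14618 and 13625, a change of -0.32 (limma adjusted p 0.000625). In SNU-216 they were 6401 and 6318 against 7400 and 7730, a change of -0.25 (adjusted p 0.00357). In SNU-601 they were 12681 and 12965 against 10847 and 10513, a change of 0.26 (adjusted p 0.00569). The fractions did not overlap in any line, each difference was 1.25-fold or less, and the interaction had an adjusted p of 0.000255. Its near copy SLC7A5P1 was above the floor on 1 array only.

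SLC7A11 (xCT), the light chain that brings cystine into the cell in exchange for glutamate, was not above the floor in SNU-216. It read 597 and 606 in KATO-III CD133+ cells and 488 and 454 in CD133- cells, a change of 0.35 (limma SE 0.085, adjusted p 0.0096). In SNU-601 it read 585 and 626 against 718 and 694, a change of -0.22 in the other direction that was not called (adjusted p 0.119). The KATO-III call ended without CD133- array 2 (limma adjusted p 0.0528), and the interaction was called (0.0109). All 4 SNU-216 arrays lay between -3.09 and 9.36, so that neither fraction of that line had a measurable level.

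SLC7A7 (y+LAT1), which exports cationic amino acids, had the largest fall of a light chain in KATO-III. It read 343 and 383 in CD133+ cells and 940 and 811 in CD133- cells, a 2.41-fold difference (log2 change -1.27, limma SE 0.26, adjusted p 0.00445). In SNU-216 it read 166 and 143 against 127 and 63.8, a change of 0.78 with an adjusted p of 0.0556. SNU-601 gave 4006 and 4605 against 3930 and 3990, a change of 0.12. SLC7A6 (y+LAT2), named here after its values were seen, also fell in KATO-III, by 0.35 on the log2 scale (limma adjusted p 0.00572), from 362 and 400 to 295 and 303.

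SLC3A1, the heavy chain of the renal and intestinal cystine carrier, was dim, and its calls rest on values near the floor. In KATO-III it read 8.16 and -11.6 in CD133+ cells, at the floor on both arrays, and 49.7 and 46.1 in CD133- cells, at least 1.46-fold higher (limma adjusted p 0.00638). In SNU-601 the order was reversed, with 62.5 and 52.5 in CD133+ cells and 38.5 and 43.5 in CD133- cells, a change of 0.49 (adjusted p 0.027). That call was lost without SNU-601 CD133+ array 1 or CD133- array 1 (limma adjusted p 0.113 each) and under a floor of 16 (0.213). In SNU-216 it was at the floor in both fractions.

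Among the carriers of cationic amino acids, SLC7A1 (CAT1), the widely expressed arginine and lysine carrier, differed little. It read 6843 and 6611 against 6727 and 6442 in KATO-III, 4524 and 4754 against 4530 and 4580 in SNU-216, and 4445 and 4972 against 5064 and 5043 in SNU-601. The fractions overlapped in KATO-III and SNU-216, and the changes were 0.03, 0.03 and -0.10, none of them called. SLC7A4, a relative of these carriers, was lower in CD133+ cells of KATO-III and SNU-601 at low intensities. It read 40.5 and 17.1 in SNU-601 CD133+ cells and 104 and 108 in CD133- cells (change -1.54, limma SE 0.18, adjusted p 0.000922). In KATO-III it read 5.85 and 45.9 against 54.3 and 62.1 (change -0.59, adjusted p 0.0274), a call lost without CD133+ array 1 (limma adjusted p 0.131) or CD133- array 2 (0.136). Under a floor of 100 neither call remained, with changes of -0.08 in SNU-601 and 0 in KATO-III. SLC7A2 (CAT2), named after its values were seen, lay above the floor in SNU-601 alone, at 152 and 147 in CD133+ and 205 and 195 in CD133- cells (change -0.42, limma adjusted p 0.0284). That call was lost without CD133+ array 1, CD133+ array 2 or CD133- array 1 of SNU-601 (changes -0.45, -0.39 and -0.38). It was also lost with a floor of 16 (limma adjusted p 0.168), an offset of 100 in place of the floor (0.153) or the 4 arrays of the line alone (0.133).

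The sodium-coupled neutral carriers of the SLC38 family gave 4 calls in KATO-III, all of them higher in CD133+ cells, 1 higher and 1 lower in SNU-216, and 2 higher and 1 lower in SNU-601, of 9 tested members. Taken in either direction these are 44.4%, 22.2% and 33.3%, beside 39.3%, 28.6% and 16.4% of all genes, near the share of all genes in KATO-III and SNU-216. Of all genes, 18.7%, 14.6% and 8.59% were called higher in these lines and 20.6%, 14% and 7.78% lower. SLC38A2 (SNAT2), a carrier of alanine and glutamine that cells raise under amino acid shortage, read 3044 and 2646 in KATO-III CD133+ cells and 1520 and 1486 in CD133- cells, a 1.89-fold difference (log2 change 0.92, limma SE 0.17, adjusted p 0.00225). In SNU-216 it read 1362 and 1765 against 1383 and 1032, and the fractions overlapped (change 0.38, adjusted p 0.137). In SNU-601 it read 1150 and 1194 against 1870 and 1500, lower in both CD133+ arrays though not called (change -0.51, adjusted p 0.0705). The interaction of line and fraction was called for SLC38A2 (limma adjusted p 0.00315).

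SLC38A1 (SNAT1), a glutamine carrier, was called in SNU-216 alone. It read 2539 and 2357 in CD133+ cells and 1790 and 1646 in CD133- cells of that line (change 0.51, limma SE 0.064, adjusted p 0.00047). In KATO-III it read 4100 and 4127 against 3778 and 4159, and in SNU-601 3349 and 3393 against 3785 and 3563, with changes of 0.05 and -0.12. SLC38A5 (SNAT5), which carries glutamine, histidine and serine, read 1646 and 1846 against 880 and 1081 in KATO-III (change 0.84, adjusted p 0.0014). In SNU-601 it read 126 and 112 against 69.4 and 84.1 (change 0.63, adjusted p 0.0161), and in SNU-216 83.8 and 87.6 against 91.0 and 83.9, where the fractions overlapped (change -0.03). The SNU-601 call of SLC38A5 was lost without CD133+ array 1 (limma adjusted p 0.0902) or CD133- array 1 (0.0907). It was also lost with a floor of 100 (change 0.25, limma adjusted p 0.121) or with the 4 arrays of the line alone (0.105).

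SLC38A10 and SLC38A6, less studied members of the family, changed in opposite directions between lines. SLC38A10 read 669 and 624 against 517 and 517 in KATO-III (change 0.32, limma adjusted p 0.00308) and 488 and 507 against 671 and 719 in SNU-216 (change -0.48, adjusted p 0.000529). SNU-601 gave 817 and 794 against 674 and 707 (change 0.22, adjusted p 0.0406). That last call was lost without any single array of SNU-601, or without either KATO-III CD133- array (limma adjusted p 0.0541 to 0.163). SLC38A6 read 126 and 123 against 95.2 and 104 in KATO-III (change 0.32, adjusted p 0.0457) and 121 and 119 against 186 and 159 in SNU-601 (change -0.52, adjusted p 0.0133). In SNU-216 it read 377 and 354 against 327 and 305 (change 0.21, adjusted p 0.211). Leaving out any of 8 arrays, namely the 4 of KATO-III and the CD133+ arrays of the other lines, ended the KATO-III call of SLC38A6 (limma adjusted p 0.0536 to 0.177). Its SNU-601 call ended without CD133+ array 2 (0.0548) or CD133- array 1 (0.0684).

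The SLC43 family carries large neutral amino acids and, in SLC43A3, purine bases. SLC43A3 read 1146 and 1096 against 694 and 775 in KATO-III (change 0.61, limma adjusted p 0.00298). In SNU-216 the order was turned, with 118 and 144 in CD133+ cells and 241 and 246 in CD133- cells (change -0.91, adjusted p 0.000545). SNU-601 gave 215 and 252 against 173 and 170 (change 0.44, adjusted p 0.0338). The fractions did not overlap in any line, and the interaction had an adjusted p of 0.000218. The SNU-601 call was lost without any of 7 arrays, namely SNU-601 CD133+ array 2, both SNU-601 CD133- arrays, both KATO-III CD133+ arrays and both SNU-216 CD133- arrays (limma adjusted p 0.053 to 0.172). SLC43A2 (LAT4), named after its values were seen, fell in KATO-III, from 1034 and 1097 to 653 and 638 (change -0.72, limma adjusted p 0.000144), with changes of -0.16 and -0.04 in the other lines.

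**Figure D3:**
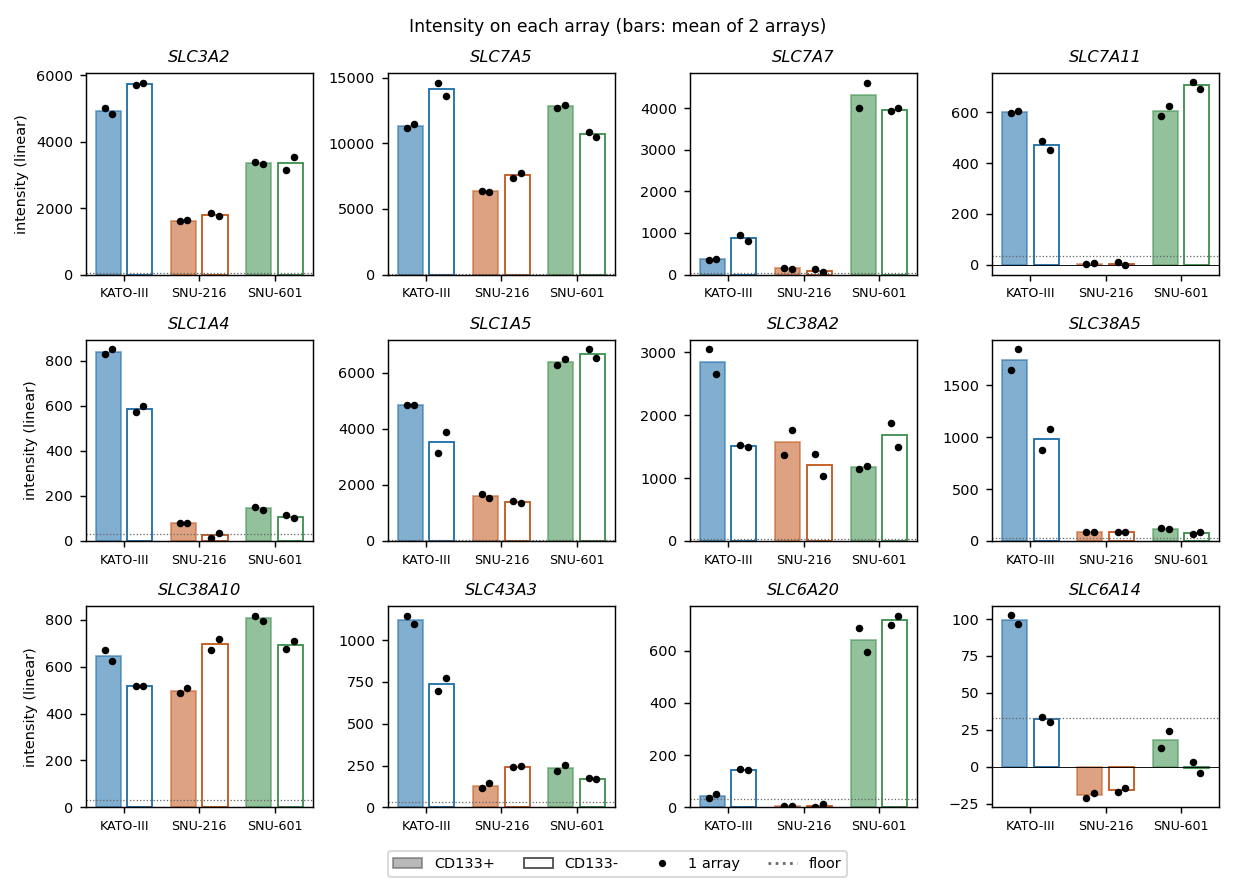
Each panel shows a transporter gene, with the linear intensity on every array as a point, the mean of the 2 arrays of a population as a bar (filled for CD133+, open for CD133- cells) and the floor as a dotted line; each panel has its own axis. SLC1A4 has the filled bar above the open bar in all lines, SLC7A5, SLC38A10 and SLC43A3 change order between lines, and SLC7A11 and SLC6A20 lie under the floor in SNU-216.

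Of 12 tested members, the SLC6 carriers gave 5 calls in KATO-III, 1 in SNU-216 and none in SNU-601 (limma, where no SLC6 gene had an unadjusted p under 0.05 in that line), beside 39.3%, 28.6% and 16.4% of all genes, and the KATO-III share was near that of all genes. SLC6A14 (ATB0,+), a broad carrier of neutral and cationic amino acids, read 103 and 96.3 in KATO-III CD133+ cells and 33.9 and 30.6 in CD133- cells, a change of 1.58 (limma SE 0.096, adjusted p 5.08e-06), with the second CD133- array under the floor. It was at the floor on every array of SNU-216 and SNU-601, which thus add no spread to the estimate behind its p-value. SLC6A20 (SIT1), a carrier of proline and other imino acids, went the other way in KATO-III, with 35.9 and 49.4 in CD133+ cells and 148 and 142 in CD133- cells, a 3.44-fold difference (log2 change -1.78, adjusted p 3.88e-05). In SNU-601 it was far brighter and not called, at 688 and 592 against 697 and 733, and in SNU-216 it was at the floor.

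SLC6A9 (GlyT1), the glycine carrier, was lower in CD133+ cells of KATO-III and SNU-216. It read 104 and 119 against 205 and 179 in KATO-III (change -0.79, limma adjusted p 0.000642). In SNU-216 it read 75.7 and 75.9 against 120 and 106 (change -0.57, adjusted p 0.00533), and in SNU-601 525 and 514 against 557 and 533 (change -0.07, adjusted p 0.815). The SNU-216 call was lost with a floor of 100 (change -0.17, limma adjusted p 0.181) or with the 4 arrays of the line alone (0.0777). Both CD133+ arrays were below both CD133- arrays in every line, and over all lines the change of -0.48 had a limma adjusted p of 0.0554. SLC6A16, an orphan carrier, read 41.4 and 4.03 in KATO-III CD133+ cells and 61.3 and 79.1 in CD133- cells (change -0.92, adjusted p 0.0281). Without CD133+ array 1, CD133+ array 2 or CD133- array 2 of KATO-III that call was lost, at limma adjusted p-values of 0.0618, 0.172 and 0.163.

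SLC6A8 carries creatine. It read 472 and 512 in KATO-III CD133+ cells and 719 and 815 in CD133- cells (change -0.64, limma adjusted p 0.00109), and 241 and 255 against 276 and 279 in SNU-216 (change -0.16, adjusted p 0.303). All SNU-601 arrays were at the floor. Its near-identical pseudogene copy SLC6A10P, which shares sequence with it, read 816 to 1108 in KATO-III, 378 to 490 in SNU-216 and below 0 in SNU-601. Gene and copy have the same order of the lines, and how far the probes tell them apart is not known, so the values of SLC6A8 are uncertain.

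The glutamate carriers of SLC1 were mostly dim. SLC1A6 (EAAT4) was the largest change of any member in SNU-216, with 88.8 and 122 in CD133+ cells and 23.1 and 27.6 in CD133- cells, both at the floor, and thus at least 3.19-fold higher (limma adjusted p 0.00185). In KATO-III it read 52.7 and 33.3 against 29.2 and 13.2, and in SNU-601 10.7 and 33.0 against 6.89 and 52.7, with no call in either line. SLC1A1 (EAAC1), named after its values were seen, was lower in KATO-III CD133+ cells, at 122 and 119 against 152 and 178 (change -0.45, limma adjusted p 0.0259). The call of SLC1A1 was lost without CD133+ array 1, CD133+ array 2 or CD133- array 2 of KATO-III (changes -0.47, -0.43 and -0.34). It was also lost with a floor of 16 (limma adjusted p 0.0797), an offset of 100 in place of the floor (0.0962) or the 4 arrays of the line alone (0.0564). The remaining glutamate carriers and the tested proton-coupled SLC36 carriers were called in no line.

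The whole lines were compared by the mean of both fractions. Between KATO-III and SNU-216, 29 of the 43 tested members were called (67.4%), 24 higher and 5 lower in KATO-III, beside 62% of all genes, 30.3% higher and 31.7% lower. Between KATO-III and SNU-601, 28 were called (65.1%), 14 in each direction, beside 58.6% of all genes, 28.7% higher and 29.9% lower. Between SNU-216 and SNU-601, 26 were called (60.5%), 7 higher and 19 lower in SNU-216, beside 56.5% of all genes, 29.4% higher and 27.1% lower. The median range of the 3 line means was 0.92 on the log2 scale for the tested members and 0.70 for all tested genes. Of the tested members, 10 were at the floor on all 4 arrays of SNU-216, against 5 in KATO-III and 5 in SNU-601. Such members passed the filter through the other lines, and the share of all tested genes at the floor was not taken. In each SNU-216 fraction 44.5% of all genes were above the floor on both arrays, within the range of the other populations. SNU-216 had the lowest level of SLC3A2, SLC7A5, SLC1A5 and SLC38A1, each called against both other lines.

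SLC7A7 spanned the widest range, 5.13 on the log2 scale, and SNU-601 exceeded SNU-216 34.9-fold and KATO-III 7.33-fold (limma adjusted p 9.75e-09 and 8.33e-07). SLC6A20 in SNU-601 was at least 20.7-fold above SNU-216, where all arrays were at the floor, and 8.65-fold above KATO-III. SLC7A11 was at least 16.3-fold higher in KATO-III than in SNU-216 and higher still in SNU-601, by at least 4.32 on the log2 scale, while KATO-III and SNU-601 were 1.23-fold apart. The order of the lines therefore differed from carrier to carrier. SLC6A8 was at least 18.8-fold higher in KATO-III and at least 8.02-fold higher in SNU-216 than in SNU-601. SLC38A5 was 15.1-fold higher in KATO-III than in SNU-216 and 13.7-fold higher than in SNU-601, and the latter lines did not differ beyond their spread (change -0.14, limma adjusted p 0.289). SLC1A4 was 5.62-fold higher in KATO-III than in SNU-601 and, with 1 of the 4 SNU-216 arrays raised to the floor, at least 13.4-fold higher than in SNU-216. SLC36A4, a lysosomal and plasma membrane carrier of proline and tryptophan, named after its values were seen, lay above the floor in SNU-216 alone, at 117 to 228.

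**Figure D4:**
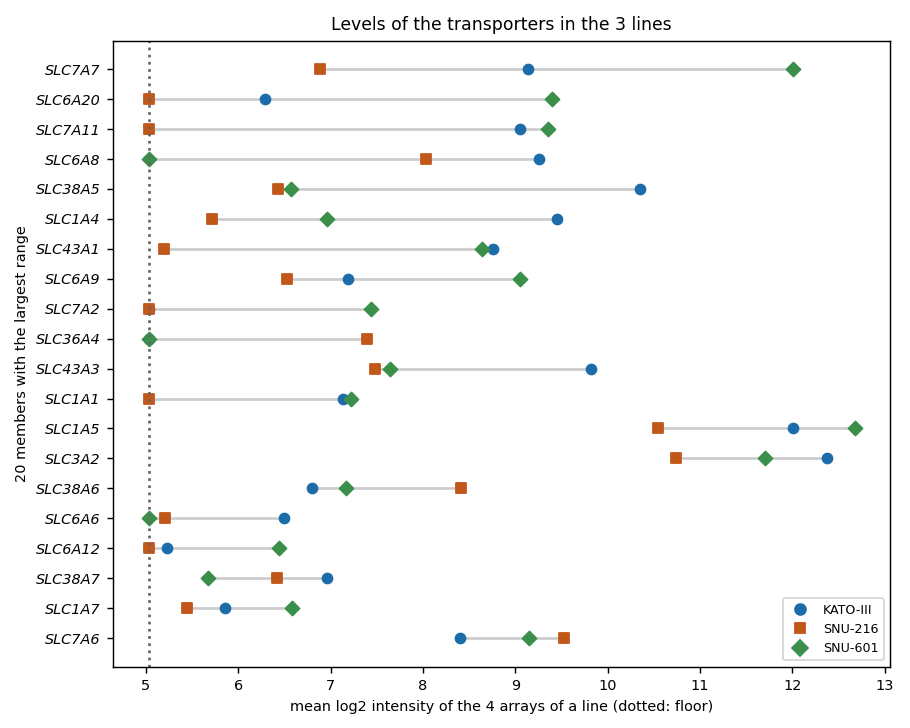
The mean log2 intensity over the 4 arrays of KATO-III (circles), SNU-216 (squares) and SNU-601 (diamonds) is shown for the 20 tested transporter genes with the widest range of line means, from SLC7A7 (5.13) downwards, with the floor as a dotted line. Symbols are to be compared within a gene, and SNU-216 lies on the floor for SLC6A20, SLC7A11, SLC7A2, SLC1A1 and SLC6A12 (KATO-III lies there too for SLC7A2).

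Genes that sense amino acids, by way of the Rag GTPases, the Ragulator, GATOR and the GCN2 kinase, were set beside the carriers. Of 29 such genes on the array 28 were tested, and 13 were called in KATO-III (4 higher, 9 lower), 8 in SNU-216 (6 higher, 2 lower) and 6 in SNU-601 (2 higher, 4 lower). These are 46.4%, 28.6% and 21.4% of the tested sensing genes, beside 39.3%, 28.6% and 16.4% of all tested genes, so that the SNU-216 share equals that of all genes. Over all lines RRAGC, a Rag GTPase, and C7ORF59 (LAMTOR4), a Ragulator subunit, fell by 0.40 and 0.39 on the log2 scale (limma adjusted p 0.0350 and 0.0239). RRAGC read 910 and 917 against 1390 and 1598 in KATO-III, 1277 and 1519 against 1544 and 1733 in SNU-216, and 1931 and 1760 against 2134 and 2333 in SNU-601, below the CD133- arrays in every line. The RRAGC call was lost when any of 8 single arrays was left out, the 4 of KATO-III, SNU-216 CD133+ array 1 and CD133- array 2, and array 2 of both SNU-601 fractions (limma adjusted p 0.0553 to 0.0917). That of C7ORF59 was lost without any KATO-III array or SNU-216 CD133- array 2 (0.0511 to 0.0647), and both were lost with the arrays of a population averaged first (0.796). The largest called changes were in SNU-216, with FNIP2 at 1.39 and the leucine sensor relative SESN1 at 0.82 (limma adjusted p 0.0120 and 0.00371). FNIP2 differed widely between its CD133+ arrays, at 404 and 194 against 118 and 96.5, and its call was lost without CD133+ array 1 (limma adjusted p 0.0682) or CD133- array 2 (0.0853).

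Enzymes that make or break down amino acids were called in KATO-III for 19 of 34 tested genes (12 higher, 7 lower), in SNU-216 for 13 (7 higher, 6 lower) and in SNU-601 for 5 (2 higher, 3 lower). These are 55.9%, 38.2% and 14.7% of the tested enzymes, beside 39.3%, 28.6% and 16.4% of all tested genes, with the SNU-601 share below that of all genes. Over all lines ASS1, which joins citrulline to aspartate in arginine synthesis, was the single call, lower by -0.55 (limma SE 0.103, adjusted p 0.0207). It read 4874 and 4900 against 5308 and 5441 in KATO-III, 305 and 297 against 494 and 491 in SNU-216, and 3119 and 2808 against 5550 and 4687 in SNU-601. The call of ASS1 was lost with the arrays of a population averaged first (limma adjusted p 0.796) or as a random block (0.191). BCAT1, the cytosolic branched-chain aminotransferase, had the largest called change in SNU-216 (1.61, limma adjusted p 0.000463), from 54.6 ± 6.57 in CD133- cells to 169 ± 38.3 in CD133+ cells (mean ± SD of intensity, n = 2 arrays). BCAT1 was brighter in KATO-III, at 773 ± 55.1 in CD133- and 1868 ± 12.9 in CD133+ cells. In SNU-601 the order was turned, at 73.4 ± 15.4 and 46.2 ± 7.32. PRODH, which begins proline breakdown, had the largest called change in KATO-III (1.56, limma adjusted p 3.92e-06), from 427 and 514 to 1348 and 1424. In SNU-216 PRODH was at the floor on every array, at -19.2 and -26.5 in CD133+ and 3.10 and -27.7 in CD133- cells. Those arrays add no spread to the estimate behind its p-value.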

How the data were processed

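Total RNA of sorted cells was amplified and 750 ng of cRNA hybridized to each of 12 Illumina BeadChips. The authors deposited quantile-normalized, background-subtracted linear intensities with 1 row per gene symbol; the submitters' processing notes name BeadStudio, and the handling of background and of several probes per gene is not given in the sources used here. Of all values, 32.1% were at or below 0. Of 34688 rows, 93 were empty.

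Intensities were floored at 32.7, logged, and fitted with limma 3.58.1 (R 4.3.3) with a mean-variance trend, with a term per population (6 terms, 6 residual degrees of freedom) for differences within lines, between lines and their interaction. The fit over all lines used line as a block (8 residual degrees of freedom), so its residual also holds the differences between lines in the fraction change. Tables and figures were made with Python 3.11.15, pandas 2.3.3, numpy 2.4.6 and matplotlib 3.10.9. The scripts were tested on simulated data. The precision is limited by the 2 arrays per population.

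The members, the gene lists and the floor were chosen with earlier results of these data known. Genes named were PROM1, 9 carriers taken by role, members called over all lines or in all 3 lines, the 5 largest called changes in each line, the 5 widest ranges of line means, members called in opposite directions, and the 2 largest called changes of each list of sensing genes and enzymes. All other transporters named in the text were chosen after their values were seen, whether or not marked there. Alternatives covered the floor, the normalization, the filter on dim genes, the trend, the blocks, the arrays in the fit and leaving out each array. Same-numbered arrays of the 2 fractions of a line did not deviate together (correlations 0.026, 0.013 and -0.0065 across 20147 genes), so replicate numbers were not used to pair them. Clinical and quantitative PCR data of the study were not analysed here, and some marker genes are not reported here.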

Additional observations from a re-analysis of the deposited data

Results flagged for a closer look

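For 21 of the tested transporters the fraction difference depended on the line by limma's interaction test over all 12 arrays, which is 48.8% of the 43 tested and near the 44.4% of all tested genes. Where the lines moved in opposite directions with a call on each side, the adjusted p was 0.000218 for SLC43A3, 0.000222 for SLC38A10, 0.000255 for SLC7A5, 0.00344 for SLC3A1 and 0.00392 for SLC38A6. Where KATO-III alone carried the call, it was 4.97e-05 for SLC6A14, 0.000445 for SLC6A20, 0.00315 for SLC38A2, 0.00492 for SLC7A7, 0.0109 for SLC7A11, 0.0142 for SLC6A8, 0.023 for SLC1A5, 0.00261 for SLC43A2, 0.00873 for SLC7A6 and 0.0207 for SLC1A1. Where SNU-216 alone carried it, it was 0.00128 for SLC38A1 and 0.00671 for SLC1A6. Where the calls ran in the same direction in at least 2 lines but differed in size, it was 0.00291 for SLC7A4, 0.00804 for SLC1A4, 0.0147 for SLC38A5 and 0.015 for SLC6A9. For SLC6A14, SLC6A20, SLC7A11, SLC3A1, SLC7A4, SLC6A8 and SLC1A1 at least 1 line was at the floor in both fractions, and its change of 0 there is a bound of the floor and no measured equality. Among the sensing genes and enzymes named, the interaction had an adjusted p of 3.3e-05 for PRODH, 0.000506 for BCAT1, 0.00236 for ASS1, 0.0166 for SESN1, 0.0201 for FNIP2 and 0.0451 for RRAGC. PRODH was at the floor in both SNU-216 fractions, so its change there is likewise a bound of the floor.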

How the results depend on the processing

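No called change of a named gene changed direction under any alternative. Changes that were not called were not followed gene by gene. Restricting the test to genes above the floor on all 12 arrays left 18 members, and the KATO-III calls were then 5 higher and 6 lower, the SNU-601 calls higher 3, the interaction calls 12, and the line differences 14, 17 and 14 for KATO-III against SNU-216, KATO-III against SNU-601 and SNU-216 against SNU-601, with fewer members tested. In SNU-601 the 6 higher calls became 3 with an offset of 100 in place of the floor, 2 with the replicate block and 1 with the 4 arrays of the line alone, and 1 to 6 when 1 array was left out, with 2 and 3 without CD133+ array 1 and 2 and 1 and 3 without CD133- array 1 and 2. The 3 lower calls there became 1 to 3, with 1 without CD133+ array 2 or CD133- array 1. The single call over all lines, SLC1A4, became 0 with a floor of 16 or 100, with the replicate block, with the arrays of a population averaged first or as a random block (consensus correlation 0.641), and by the signal-to-noise ratio. Leaving out 1 array gave 0 to 1 there. No member was called lower over all lines, and 1 was with the filter on all 12 arrays, without the trend, or without SNU-601 CD133- array 1 (0 to 1 over the arrays). With the replicate block the members called were 18, 8 and 4 in KATO-III, SNU-216 and SNU-601. Beside them stood 7260, 5153 and 2375 of all 20147 tested genes, in place of 7917, 5762 and 3298. Over all lines the replicate block left 0 members called, and 2 of all genes in place of 953. The samples share only a number, so this was not taken as a pairing. Quantile normalization repeated and centring on the median each kept all 50 called changes of named genes and moved the median of all genes to 0.06 at most. Of the values of these called changes under the alternatives, 958 kept the call and 124 lost it, 67 of these when 1 array was left out. The cause was not tested. The floor limits what 25 of the 43 tested members can show.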
